A study of Mus musculus with 45 samples.

Results

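Acyl-CoA thioesterases cut fatty acyl-CoA into free fatty acid and coenzyme A. They run against the acyl-CoA synthetases that activate fatty acids, and so help set how much activated fatty acid and free coenzyme A each compartment of a cell holds. Type I enzymes belong to the alpha/beta hydrolase superfamily and include Acot1 of the cytosol, Acot2 of mitochondria and Acot4 of peroxisomes, which are encoded side by side. Type II enzymes carry the hotdog fold and include Acot7 and Acot12 of the cytosol, Acot9 and Acot13 of mitochondria and Acot8 of peroxisomes. Acot1 is known from liver and heart as a gene that rises with fasting and fat feeding through the nuclear receptor PPARα.

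These 8 genes of the 47729 in the table were followed in tuft cells, the rare chemosensory cells of the intestinal epithelium. All 8 passed the filter on low counts, a count above 5 in 6 or more of 45 libraries. Acot1 reached such a count in 26 libraries, but in fewer than 6 on RFD, so it passed only through the HFD libraries. The family was chosen by its differences between the diets in these same libraries, so the differences are given as a description, and the calls support nothing on their own. The cells were sorted as EpCAM+ Siglec-F+ from the small intestine of male C57BL/6J mice, each library holding the cells of 1 mouse, and were sequenced in bulk after Smart-seq2 amplification. The paper's methods write the sorted cells as CD45+ but also state that CD45 served to leave out cells that express it. The mice arrived at an age of 5 weeks and were all kept at 30 °C. They ate a high fat diet (HFD, 60% fat) or a low-fat reference diet (RFD, 10% fat), for 9 weeks (11 mice on RFD, 11 on HFD) or 22 weeks (11 on RFD, 12 on HFD). The labels give 9 weeks for every library. The second set was taken as the 22-week mice from the study's design, so a difference between the times is also a difference between the 2 sets.

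Libraries held 189340 to 4690213 reads on genes, and the 2 under 500000 were 1 of RFD and 1 of HFD, both at 9 weeks. All 17 tuft markers had reads in every group. Their summed level, in read counts scaled to library size (CPM), ran from 4111 to 27080 on RFD and from 363 to 25760 on HFD at 9 weeks, with medians of 17150 and 7177. At 22 weeks it ran from 4091 to 25430 and from 1107 to 25810, with medians of 18790 and 14870. The 7 Paneth cell markers summed to medians of 2733 CPM (RFD) against 28200 CPM (HFD) at 9 weeks, and to 1488 and 11400 CPM at 22 weeks. The groups overlapped, from 57.7 to 112000 CPM on RFD and from 117 to 600700 CPM on HFD at 9 weeks. None of the 7 was called by edgeR at either time. DESeq2 called 2 of them higher at 9 weeks, where it called 832 of 14020 genes higher, and 0 at 22 weeks. The median levels of other cell types' markers differed too, with ranges that overlapped between the diets. The 8 enteroendocrine markers had medians of 695.6 and 184 CPM at 22 weeks, with Cck, Nts and Scg2 called lower on HFD (log2 fold changes of -7.73, -8.69 and -3.97). At 9 weeks the 6 stem and cycling markers had medians of 470 and 1440 CPM, with Olfm4 called higher, and the 7 goblet markers 2541 and 3345 CPM, with Spink4 called higher. Of all genes, edgeR called 1.83% higher at 9 weeks and 0.292% lower at 22 weeks. The 8 T cell markers had medians of 20.1 and 1.6 CPM at 9 weeks, with ranges of 0 to 62.7 CPM (RFD) and 0 to 76.4 CPM (HFD). The part of these cell types in the thioesterase results was not tested. Several libraries stood apart. HFD mouse 80 at 9 weeks had 600700 CPM of Paneth markers and the lowest tuft level. TMM scaling alters the library size, so that value is not a share of its reads, of which its top gene, Defa24, held 11.12%. RFD mouse 3 at 22 weeks had over 5 reads for 6135 genes, the fewest of its set. HFD mouse 64 at 9 weeks had no Acot1 read. RFD mouse 40 at 9 weeks had 189340 reads, over 5 reads for 3051 genes, and none of Acot1, Acot2, Acot4, Acot8 or Acot12. A count of 0 in it allows up to 15.84 CPM before TMM scaling. In bulk RNA, fewer cells of a type and less RNA per cell cannot be told apart.

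Acot1, Acot2 and Acot4 lie within a single cluster on chromosome 12 (GRCm38, GENCODE M21), all on the plus strand. Acot2 spans 83987861 to 83993873, Acot1 spans 84009490 to 84018371, and Acot4 spans 84038379 to 84048601, followed by Acot3, Acot5 and Acot6. Where a read matches several genes the counting program splits it, so the sequences decide which counts of this cluster can be taken alone. The coding sequences of Acot1 and Acot2 were identical at 1178 of 1236 aligned bases (95.3%), and Acot1 and Acot4 at 74.6%. Acot1 and Acot2 shared an unbroken run of 273 bases. The end of that run is shown here on the coding strand, with capitals at the 5 positions where the genes differ, first Acot1 at chr12:84017219-84017338 and then Acot2 at chr12:83992941-83993060.
Acot1: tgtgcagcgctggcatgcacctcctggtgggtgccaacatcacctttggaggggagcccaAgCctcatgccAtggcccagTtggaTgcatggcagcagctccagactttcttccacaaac
Acot2: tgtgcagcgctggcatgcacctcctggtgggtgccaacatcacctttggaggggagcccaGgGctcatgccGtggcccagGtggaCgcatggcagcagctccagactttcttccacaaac

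A read that fell wholly in the first part of this stretch matched both genes. Of all windows of 100 bases in the Acot1 transcript, 16.5% were also found in a transcript of Acot2, and 17.1% of those of Acot2 were found in Acot1. Acot1 shared 21.9% of its windows with at least 1 of 6 genes, Acot2 among them. For Acot7 and Acot13 no window of 100 bases was shared with another gene. The overlap showed in the counts. The Acot1 count was not whole in 21 of the 45 libraries (tolerance 0.02), and in all 21 of them the sum of Acot1 and Acot2 was whole. Acot4 was not whole in 13 libraries, and 8.83% of its windows were also found in 4732463B04Rik, a gene outside the family. The sum of Acot1 to Acot6 was whole in 12 of the 21. Acot8 shared 13.8% of its windows with Snx21, the only other gene that held any of them. The intronless copy of Acot9, Acot10, was 97.2% identical to it in coding sequence but had only 23 reads over all libraries, against 1628 for Acot9.

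The promoters of the 3 cluster genes are shown because Acot1 and Acot4 were the members with the largest differences between the diets. They are RefSeq sequences of 300 bases, 250 before and 50 after the gene's start, on GRCm38.p6. Capitals mark the nuclear receptor motif AGGTCA, the CCAAT box and TATAAA, each searched on both strands. The windows are chr12:84009252-84009551 for Acot1, chr12:83987611-83987910 for Acot2 and chr12:84038129-84038428 for Acot4, all on the plus strand.
Acot1: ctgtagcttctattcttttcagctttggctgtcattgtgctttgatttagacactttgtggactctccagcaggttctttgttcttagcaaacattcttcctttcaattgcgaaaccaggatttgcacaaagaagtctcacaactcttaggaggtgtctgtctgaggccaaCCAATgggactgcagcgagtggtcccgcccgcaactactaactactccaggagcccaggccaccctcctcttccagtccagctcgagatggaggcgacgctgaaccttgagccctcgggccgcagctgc
Acot2: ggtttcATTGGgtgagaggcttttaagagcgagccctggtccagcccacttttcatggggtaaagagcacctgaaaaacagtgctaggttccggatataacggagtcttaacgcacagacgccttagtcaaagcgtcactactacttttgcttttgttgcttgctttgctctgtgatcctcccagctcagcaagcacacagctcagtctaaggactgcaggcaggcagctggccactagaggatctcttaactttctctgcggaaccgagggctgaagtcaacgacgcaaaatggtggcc
Acot4: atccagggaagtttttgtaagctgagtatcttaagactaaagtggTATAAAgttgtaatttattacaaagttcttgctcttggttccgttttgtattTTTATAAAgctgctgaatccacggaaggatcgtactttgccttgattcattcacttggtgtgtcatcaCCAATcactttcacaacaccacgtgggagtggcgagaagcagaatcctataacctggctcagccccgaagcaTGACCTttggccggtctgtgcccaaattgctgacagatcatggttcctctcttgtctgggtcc

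Of these 3 windows, the one of Acot4 held AGGTCA, on the minus strand with its first base 13 bases before the start. AGGTCA occurred in 16.3% of the 32851 promoters of this length, CCAAT in 37.4% and TATAAA in 13.6%. A direct repeat of AGGTCA with 1 base between occurred in 0.0396% of them and in none of these 3. CCAAT was present in all 3, and in Acot4 the TATAAA matches of the 2 strands overlapped. Promoters were matched for 13 of 16 thioesterase and related genes searched. Acot6, Acot13 and Baat were not among them.

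Levels between genes were compared as TPM, which is scaled per length. Acot7 was the most abundant member, with a median of 294.6 TPM over the 45 libraries and a range of 11.01 to 582 TPM. Acot13 followed with a median of 116.3 TPM and Acot8 with 45.2 TPM. Acot7 exceeded Acot13 in 39 of 45 libraries, Acot13 exceeded Acot8 in 44, and Acot8 exceeded Acot9 in 42. The first of these orders was weakest on HFD at 9 weeks, where Acot7 exceeded Acot13 in 7 of 11 libraries. Acot9, a mitochondrial enzyme, had a median of 9.31 TPM. Acot1, Acot12, Acot2 and Acot4 lay close together, with medians of 4.02, 3.84, 3.48 and 2.73 TPM. Their order was not fixed, since Acot1 exceeded Acot12 in 22 of 45 libraries, Acot12 exceeded Acot2 in 21 and Acot2 exceeded Acot4 in 26.

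The place of Acot1 in this order depended on the diet. It was the seventh of the 8 members on RFD at 9 weeks, with a median of 1.19 TPM, and the last on RFD at 22 weeks, with 0.20 TPM. On HFD it was the fourth at 9 weeks, with 23.4 TPM, and the fifth at 22 weeks, with 12.7 TPM. The first 3 places were held by Acot7, Acot13 and Acot8 in all 4 groups.

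**Figure D1:**
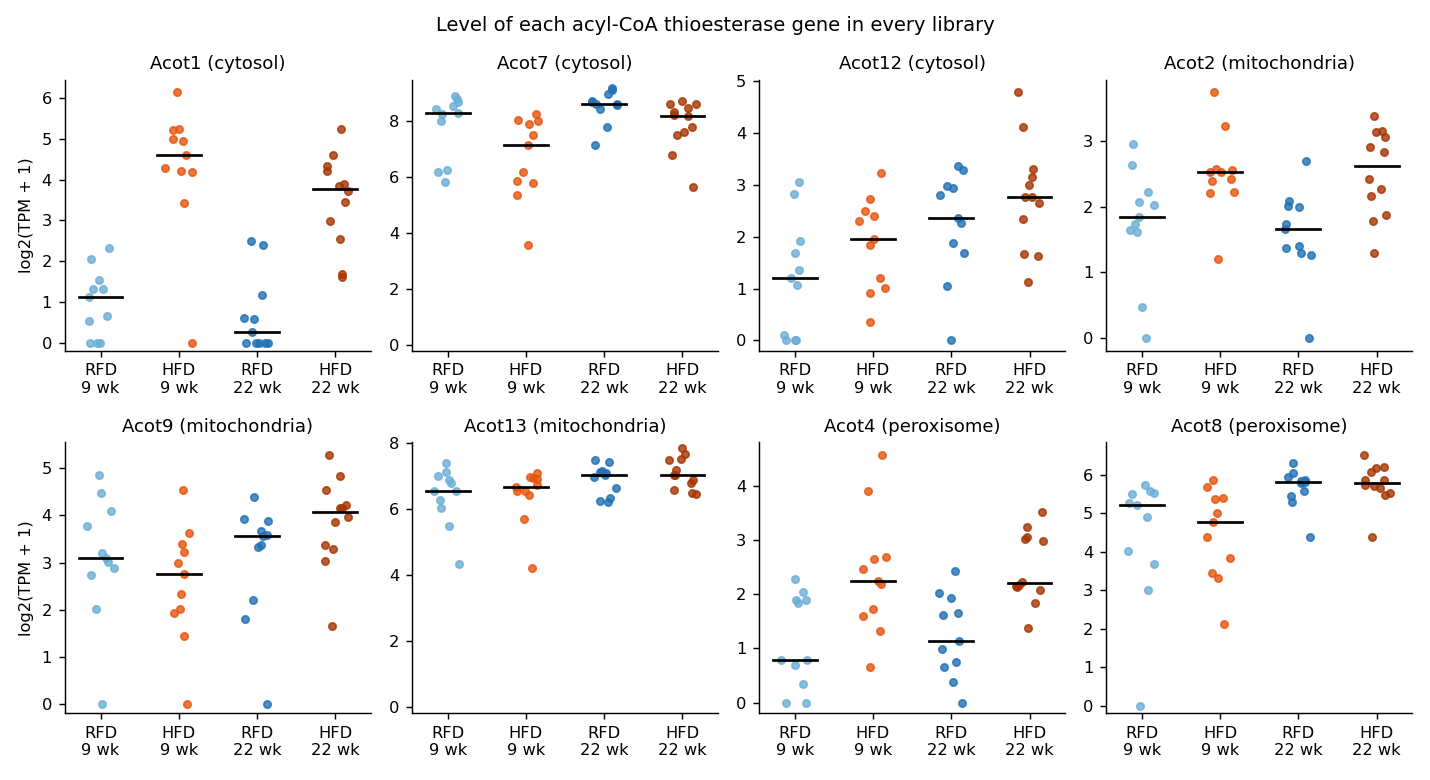
Each panel plots 1 member on a log2(TPM + 1) axis, with 1 point per library in the 4 groups and a bar at the group median. Acot1 had a median of 1.19 TPM on RFD and 23.4 TPM on HFD at 9 weeks, whereas Acot13 had medians of 92.3 and 101.3 TPM.

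Acot1, which acts on long-chain acyl-CoA in the cytosol, had 0 to 6.46 CPM on RFD at 9 weeks with a median of 1.94 CPM. On HFD it had 0 to 97.9 CPM with a median of 48.6 CPM, and 10 of 11 mice lay above every mouse on RFD. The single HFD mouse below them was mouse 64, with 0 Acot1 reads in 2013749, which allows a level of up to 1.49 CPM before TMM scaling. The log2 fold change was 4.36 with an SE of 0.63 and an adjusted p of 0.0015 by the quasi-likelihood test of edgeR, and its unadjusted p was the smallest of the 14020 genes tested. At 22 weeks Acot1 had 0 to 6.25 CPM on RFD with a median of 0.309 CPM, and 2.67 to 44.9 CPM on HFD with a median of 18.8 CPM. There 9 of 12 HFD mice lay above every RFD mouse and all 12 above the RFD median. The log2 fold change was 3.65 (SE 0.67, edgeR adjusted p = 0.00858), and it ranked as gene 13 by p. The zero in HFD mouse 64 was shared by Cyp4a10, a fatty acid hydroxylase gene with a median of 25.4 CPM on HFD at that time, while that library had 2575 CPM of the tuft marker Dclk1, the highest of its group. Without mouse 64 the number of members called at 9 weeks went from 1 to 4, with Acot2, Acot4 and Acot7 added at adjusted p of 0.0754, 0.0544 and 0.0449 (edgeR). Without RFD mouse 20 it was 3, with Acot4 and Acot7 added, and without RFD mouse 10, RFD mouse 40 or HFD mouse 63 it was 2, with Acot7 added.

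The labels number the mice in 3 runs and do not say what the runs mark. They are the single digits, the multiples of 10, and the other numbers up to 64, with 1 library of each set in none. Acot1 differed between the diets by 3.88, 4.47 and 2.56 on the log2 CPM scale within these runs at 9 weeks. At 22 weeks they gave 3.67, 3.12 and 3.12. All 6 values had the same direction, as did the 6 of Acot2, of Acot4 and of Acot12. They come from the libraries that chose the family, so they are a description and no separate support.

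Of the 8 members, 1 was called at 9 weeks, where 3.07% of all genes were (1.83% higher on HFD and 1.24% lower), and 2 were called at 22 weeks, where 0.728% were (0.435% higher and 0.292% lower). All these calls were higher on HFD, and since the same contrasts chose the family nothing is read from the shares. Called means an adjusted p under 0.1 over all 14020 genes tested. DESeq2, used as an alternative, called 1534 of them at 9 weeks and 351 at 22 weeks, of which 832 and 183 were higher on HFD. An unadjusted p under 0.05 was found for 5 members at 9 weeks, where 18.2% of all genes had one, and for 4 at 22 weeks, where 10.3% had one. The median log2 fold change of the 8 members was 0.53 at 9 weeks and 0.78 at 22 weeks, and that of all genes tested was -0.05 and -0.03. Of the members, 5 had a log2 fold change above 0 at 9 weeks and 7 at 22 weeks.

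**Figure D2:**
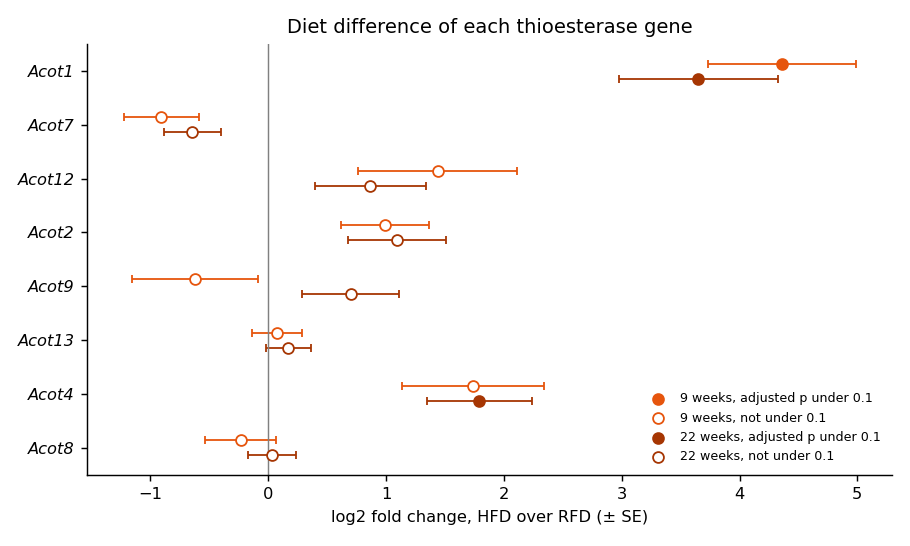
The log2 fold change of HFD over RFD is plotted for each member with its SE, at 9 and 22 weeks, and filled points had an adjusted p under 0.1. Acot1 lay at 4.36 and 3.65, Acot4 at 1.74 and 1.79, and Acot7 at -0.91 and -0.64.

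Acot4, the peroxisomal enzyme of the cluster, hydrolyses succinyl-CoA and dicarboxylic acyl-CoA. At 22 weeks it had 0 to 6.72 CPM on RFD with a median of 2.34 CPM, and 3.2 to 20.7 CPM on HFD with a median of 11.4 CPM. Here 9 of 12 HFD mice exceeded every RFD mouse. The log2 fold change was 1.79 (SE 0.45, edgeR adjusted p = 0.0711). The call was a narrow one, since it held in 10 of the 23 fits that each left out 1 library, with adjusted p from 0.0216 to 0.159. At 9 weeks Acot4 had 0 to 13.3 CPM on RFD and 3.66 to 43.8 CPM on HFD, with medians of 2.26 and 10.1 CPM. Its log2 fold change of 1.74 (SE 0.60, edgeR adjusted p = 0.134) missed the threshold, and 5 of 11 HFD mice lay above every RFD mouse.

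Acot2, the mitochondrial enzyme that shares reads with Acot1, had 0 to 15.9 CPM on RFD and 7.48 to 26.5 CPM on HFD at 9 weeks, with medians of 7.14 and 14.7 CPM. The groups overlapped, though 11 of 11 HFD mice lay above the RFD median. Its log2 fold change was 0.99 (SE 0.37, edgeR adjusted p = 0.162). At 22 weeks the medians were 4.58 CPM (RFD) against 11.6 CPM (HFD), with a log2 fold change of 1.09 (SE 0.41, edgeR adjusted p = 0.33). How many of its reads belonged to Acot1 cannot be read from the table. With the reads of Acot1 to Acot6 added up into 1 row, which removes the sharing among these 6 genes but not that with genes outside them, the log2 fold change was 2.33 (SE 0.33, edgeR adjusted p = 0.00129) at 9 weeks and 2.07 (SE 0.37, edgeR adjusted p = 0.00617) at 22 weeks.

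Acot12, a cytosolic enzyme that acts on acetyl-CoA and has a StAR-related lipid transfer domain, had a median of 3.04 CPM on RFD and of 9.07 CPM on HFD at 9 weeks. It had no read in 3 RFD libraries, among them mouse 40 with only 189340 reads on genes, while every HFD library had reads at that time. The log2 fold change was 1.44 (SE 0.67, edgeR adjusted p = 0.255) at 9 weeks and 0.87 (SE 0.47, edgeR adjusted p = 0.539) at 22 weeks, when the medians were 8.8 and 16.9 CPM. The groups overlapped at both times.

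Acot7, the most abundant member, is a cytosolic long-chain enzyme best known from brain. It had 116.7 to 560.5 CPM on RFD at 9 weeks with a median of 423.2 CPM, and 73.3 to 396.6 CPM on HFD with a median of 157 CPM. All 11 HFD mice lay below the RFD median and 3 lay below every RFD mouse. The log2 fold change was -0.91 (SE 0.32, edgeR adjusted p = 0.141). At 22 weeks the medians were 484.9 CPM (RFD) against 330 CPM (HFD), 11 of 12 HFD mice lay below the RFD median, and the log2 fold change was -0.64 (SE 0.24, edgeR adjusted p = 0.322). Neither passed the threshold. Within the runs of mouse numbers the differences at 9 weeks were uneven, at -1.82, 0.00 and -0.46 on the log2 CPM scale, and at 22 weeks they were -0.67, -0.54 and -0.59.

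Acot8, a peroxisomal enzyme of broad specificity, had medians of 31.7 CPM (RFD) against 24.6 CPM (HFD) at 9 weeks and of 46.5 and 48.1 CPM at 22 weeks. Its log2 fold changes were -0.23 (SE 0.30) and 0.03 (SE 0.20), with adjusted p values of 0.738 and 0.975 (edgeR). Acot13, a small mitochondrial enzyme, had medians of 52.5 and 53.9 CPM at 9 weeks and of 60.6 and 65.9 CPM at 22 weeks. Its log2 fold changes were 0.07 (SE 0.21) and 0.17 (SE 0.19), with adjusted p values of 0.891 and 0.816 (edgeR). These 2 members had the smallest differences of the family at both times, each less than its SE.

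Acot9, like Acot8, had estimates on either side of 0, and its were the larger. At 9 weeks it had medians of 18.3 CPM (RFD) against 12 CPM (HFD), and 9 of 11 HFD mice lay below the RFD median. At 22 weeks the medians were 16.4 and 23.7 CPM, and 10 of 12 HFD mice lay above the RFD median. The log2 fold changes were -0.62 (SE 0.53) and 0.70 (SE 0.41), with adjusted p values of 0.57 and 0.581 (edgeR). The interaction of diet and week, fitted over all 45 libraries, was 1.38 (SE 0.68) with an unadjusted p of 0.0495 and an adjusted p of 1 (edgeR's quasi-likelihood test). No member was called in that interaction test, where 0.00713% of all genes were, and Acot9 alone had an unadjusted p under 0.05, as 3.27% of all genes had. DESeq2 called no member there either. For Acot1 the interaction was -0.72 (SE 0.93) and for Acot4 0.09 (SE 0.69).

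By compartment, the cytosolic members held most of the family's TPM in the median library of every group. Their share was 68.8% on RFD and 53.7% on HFD at 9 weeks, and 66.7% and 54.9% at 22 weeks. The ranges overlapped widely, from 46 to 77.2% on RFD and from 38 to 63.7% on HFD at 9 weeks. Acot7 alone made up 67.9% on RFD and 37.3% on HFD at 9 weeks, and Acot1 0.229% and 9.82%. In the HFD library with the most, Acot1 reached 21.5%. The mitochondrial share was 26.8% on RFD and 36.8% on HFD at 9 weeks, most of it Acot13, and 23.6% and 32.6% at 22 weeks. The peroxisomal share was 7.85% and 8.98% at 9 weeks and 9.08% and 12.2% at 22 weeks. Since shares add up to the whole, a lower share of Acot7 raises the others, and no test was made on them.

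**Figure D3:**
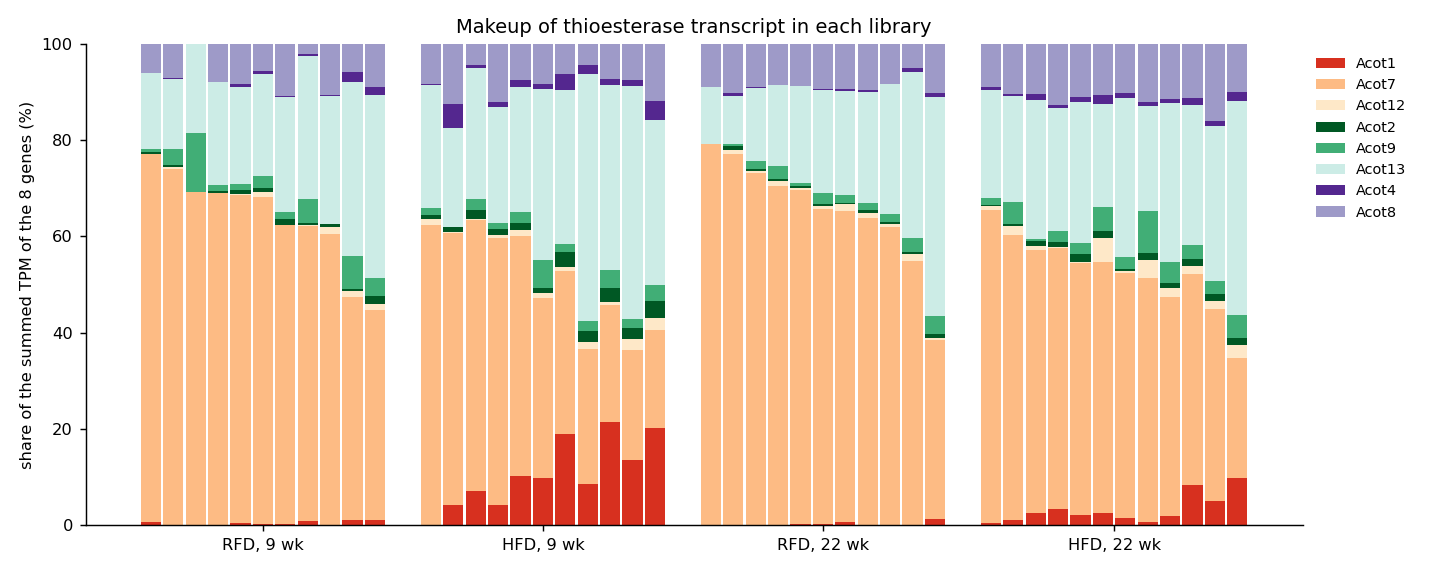
Each bar is 1 library, with the summed TPM of the 8 genes set to 100% and colours for the genes, and libraries are ordered within each group by the share of Acot7. Acot1 reached 21.5% on HFD and at most 1.25% on RFD.

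The level of Acot7 moved with the tuft markers of the same library. Of the 17 tuft markers themselves, 16 had a log2 fold change below 0 at each time and none was called (edgeR). The unadjusted p lay under 0.05 for 8 at 9 weeks and 2 at 22 weeks, where 18.2% and 10.3% of all genes had one. DESeq2 called 2 of them lower and 0 higher at 9 weeks, and 0 lower and 0 higher at 22 weeks. In either direction, it called 1534 of all 14020 genes for the earlier time (832 higher on HFD) and 351 for the later one (183 higher). Within each group, log2 CPM of each of the 8 members was compared with the log2 summed tuft markers, 32 relations in all, a comparison chosen after the values were seen. For Acot7, Pearson's r was 0.97 on RFD and 0.92 on HFD at 9 weeks and 0.79 and 0.93 at 22 weeks, with Spearman's rho of 0.78, 0.95, 0.76 and 0.85. Adjusted over the 32 relations, the permutation p of r was 0.00693, 0.00048, 0.072 and 0.00048, and that of rho 0.0468, 0.00096, 0.0541 and 0.0134 (two-sided). Without the 2 libraries farthest from the median tuft level r was 0.95, 0.95, 0.98 and 0.95. The libraries were not spread evenly. In the 8, 6, 10 and 11 libraries with over 5000 CPM of tuft markers, r was 0.49, 0.83, 0.47 and 0.94. On RFD at 9 weeks much of the relation thus rested on the 3 libraries of low tuft level. On RFD at 22 weeks the 2 farthest libraries were mice 1 and 3, with 4091 and 6884 CPM of tuft markers. There r was 0.98 without both, and the 0.47 left out mouse 1 but kept mouse 3. The runs of mouse numbers hold too few libraries of a group for a value of r. On RFD at 9 weeks the 3 libraries of low tuft level were mice 10, 20 and 40, all those of the run of multiples of 10. Their tuft markers summed to 4111 to 4193 CPM, and every other library of that group had 14910 CPM or more. In that group the tuft level and the run cannot be told apart. Both measures are shares of the same library, so a library filled with another cell type's RNA has less of both.

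With the tuft marker level as a covariate, an alternative added after the data were seen, the diet difference of Acot7 was -0.21 (SE 0.20, edgeR adjusted p = 0.852) at 9 weeks and -0.45 (SE 0.15, edgeR adjusted p = 0.218) at 22 weeks. Acot8 was the other member with r above 0 in every group, at 0.66, 0.70, 0.54 and 0.71. Its adjusted permutation p values were 0.0595, 0.072, 0.241 and 0.0258 for r, and 0.142, 0.0468, 0.121 and 0.205 for Spearman's rho.

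Acot1 had r below 0 in all 4 groups, at -0.18, -0.62, -0.38 and -0.49, and none of these had an adjusted permutation p under 0.1. In those with at most 5000 CPM of tuft markers at 9 weeks, the 3 RFD libraries had 0 to 4.46 CPM of Acot1 and the 5 HFD libraries 43.5 to 97.9 CPM, with no overlap and medians of 3.79 and 72.1 CPM. In those above it, the 8 RFD libraries had 0 to 6.46 CPM and the 6 HFD libraries 0 to 62.7 CPM, with medians of 1.42 and 36.5 CPM. At 22 weeks the single libraries of each diet below that level had 6.25 CPM (RFD) and 43.9 CPM (HFD), and the medians above it were 0.155 and 17.5 CPM. These splits were not tested, and on RFD at 9 weeks the split is also one between runs of mouse numbers. With the tuft covariate the log2 fold change of Acot1 was 3.53 (SE 0.61, edgeR adjusted p = 0.0107) at 9 weeks and 3.56 (SE 0.62, edgeR adjusted p = 0.00371) at 22 weeks. With the libraries left out in which Lyz1 or Defa24, both Paneth cell genes, had the most reads, it was 4.07 (SE 0.69, edgeR adjusted p = 0.0214) and 3.58 (SE 0.70, edgeR adjusted p = 0.0191). Of 15 enterocyte markers, 10 had a log2 fold change below 0 at 9 weeks (median -0.20), where edgeR called 1 higher and 0 lower and DESeq2 called 2 higher and 3 lower. The unadjusted p (edgeR) lay under 0.05 for 6 of them, where it did for 18.2% of all genes. Of all 14020 genes, edgeR called 3.07% at 9 weeks and 0.728% at 22 weeks, and DESeq2 called 1534 and 351. At 22 weeks 6 of the 15 enterocyte markers lay below 0 (median 0.15), and edgeR called 2 higher and 1 lower, DESeq2 3 and 2. With the summed level of these markers other than Fabp1 and Fabp2 as a covariate, the log2 fold change of Acot1 was 4.46 (SE 0.64, edgeR adjusted p = 0.000727) and 3.57 (SE 0.74, edgeR adjusted p = 0.0205).

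**Figure D4:**
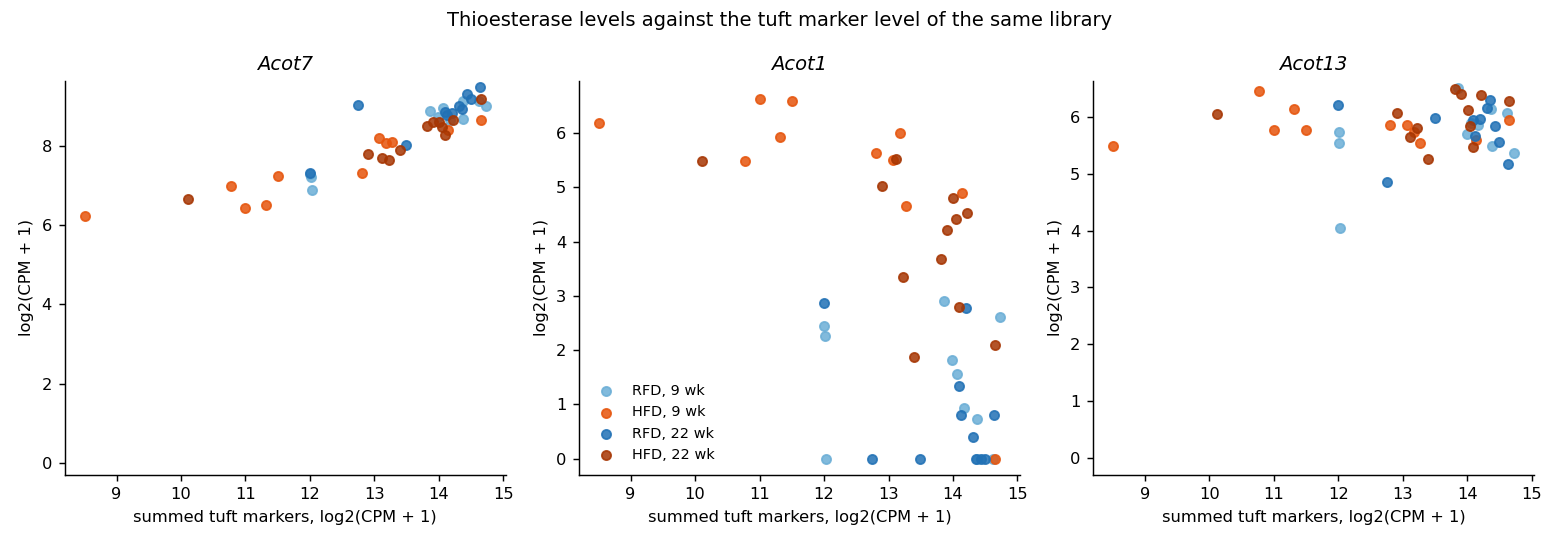
Acot7, Acot1 and Acot13 are plotted on a log2(CPM + 1) axis against the summed tuft markers of the same library, also as log2(CPM + 1), with 1 point per library coloured by group. Acot7 rose with the markers within every group, with r from 0.79 to 0.97. In the libraries with over 5000 CPM of tuft markers r was 0.49 (9 weeks) and 0.47 (22 weeks) on RFD, and 0.83 and 0.94 on HFD. In the libraries of low tuft level Acot1 lay at 43.5 CPM or more on HFD and at 6.25 CPM or less on RFD.

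Of the 8 other thioesterase or related genes, 3 were tested and 5 had too few reads (Acot3, Acot5, Acot10, Them5 and Baat). Acot6, a peroxisomal member of the cluster, had no read in 7 of 11 RFD libraries and in 1 of 12 HFD libraries at 22 weeks. Its log2 fold change there was 2.69 (SE 0.83, edgeR adjusted p = 0.182), and it was 0.61 (SE 0.89, edgeR adjusted p = 0.778) at 9 weeks. Acot11 had log2 fold changes of 0.29 (SE 0.34) and -0.42 (SE 0.39), and Them4 of -0.10 (SE 0.62) and 0.28 (SE 0.45), all with adjusted p values over 0.7. In RFD mouse 3 at 22 weeks Acot11 reached 163.1 CPM, against a group median of 21.6 CPM. Of the windows of 100 bases in Acot11, 23.1% were also found in Fam151a, and its count was not whole in 26 of 45 libraries.

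Among the enzymes that make acyl-CoA, 14 of 19 synthetases and fatty acid transport proteins were tested. At each time edgeR called 1 higher and 0 lower, where it called 1.83% (9 weeks) and 0.435% (22 weeks) of all genes higher. At 22 weeks it was Slc27a2, named after its value was seen, a very long-chain synthetase with a log2 fold change of 1.34 (SE 0.24, edgeR adjusted p = 0.00836). At 9 weeks Slc27a2 had 0.68 (SE 0.32, edgeR adjusted p = 0.258). The gene called at 9 weeks was Acss1, a mitochondrial acetyl-CoA synthetase, with a log2 fold change of 1.52 (SE 0.36, edgeR adjusted p = 0.0513), against 0.56 (SE 0.56, edgeR adjusted p = 0.789) at 22 weeks. DESeq2 called 3 of the list higher and 1 lower at 9 weeks, and 1 higher at 22 weeks. Acsl1, the long-chain synthetase, had 1.05 (SE 0.39, edgeR adjusted p = 0.156) at 9 weeks and 0.25 (SE 0.35) at 22 weeks. Of 11 tested genes that make or break down coenzyme A, none was called at either time (edgeR). An unadjusted p under 0.05 was found for 3 of them at 9 weeks and 4 at 22 weeks, where 18.2% and 10.3% of all genes had one. DESeq2 called 0 of them at 9 weeks and 3 at 22 weeks, all 3 higher on HFD.

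Of 18 genes of mitochondrial fatty acid oxidation, edgeR called 7 higher at 9 weeks and 4 at 22 weeks, where it called 1.83% and 0.435% of all genes higher, and 0 lower at either time. DESeq2 called 11 and 7 higher and 0 lower, where it called 832 and 183 of all 14020 genes higher. The median of their log2 fold changes was 0.60 and 0.61. Called at both times were Acaa2, the last thiolase of the spiral, at 1.5 (SE 0.32) and 1.66 (SE 0.33), Acadvl, the very long-chain dehydrogenase, at 1.10 (SE 0.23) and 0.91 (SE 0.22), and Hadhb, a subunit of the trifunctional protein, at 1.14 (SE 0.27) and 0.89 (SE 0.21). Of 17 tested genes of peroxisomal oxidation, edgeR called 2 higher at 9 weeks and 3 at 22 weeks, and DESeq2 3 and 5. Called at both times were Hsd17b4, a bifunctional enzyme, at 1.28 and 1.33, and Abcd3, a peroxisomal fatty acid importer, at 0.86 and 0.94. For all 5 genes the adjusted p lay between 0.0162 and 0.0811 (edgeR).

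Of 18 tested genes known to respond to PPAR receptors, edgeR called 4 higher at 9 weeks and 7 at 22 weeks, DESeq2 6 and 10, and both called 0 lower. Of all 14020 genes, edgeR called 1.83% and 0.435% higher, and DESeq2 called 832 and 183 higher. Those called at both times included Cyp4a10, with 5.54 (SE 0.81) and 6.25 (SE 0.71), and Plin2, a lipid droplet coat gene, with 0.94 (SE 0.23) and 1.48 (SE 0.36). Of the 9 receptors and coactivators themselves, none was called at either time (edgeR). The unadjusted p lay under 0.05 for 3 of them at 9 weeks and 3 at 22 weeks, where it did for 18.2% and 10.3% of all genes. DESeq2 called 1 higher and 1 lower at 9 weeks and 0 at 22 weeks. Pparg had a log2 fold change of -1.11 (SE 0.39, edgeR adjusted p = 0.142) at 9 weeks and of -0.37 (SE 0.39) at 22 weeks. Ppard had -1.05 (SE 0.51) and -1.21 (SE 0.54), and Hnf4g lay the other way at 0.98 (SE 0.38) and 0.85 (SE 0.28), none of them called. These lists were drawn up with results of the series known.

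Among the genes whose pattern over the 45 libraries was most like that of Acot1 were Dhrs4, with a Spearman's rho of 0.89 on the log2 CPM scale, Acaa2 (0.89), Hadhb (0.88) and Ahcy (0.84). Those most like Acot2 were Def8 (0.68), Acadvl (0.67), Etfdh (0.66), Ppcs (0.65) and Slc27a2 (0.65), so no gene followed Acot2 as closely. These values pool both diets and both times, and all points share the depth and the makeup of their libraries.

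**Figure D5:**
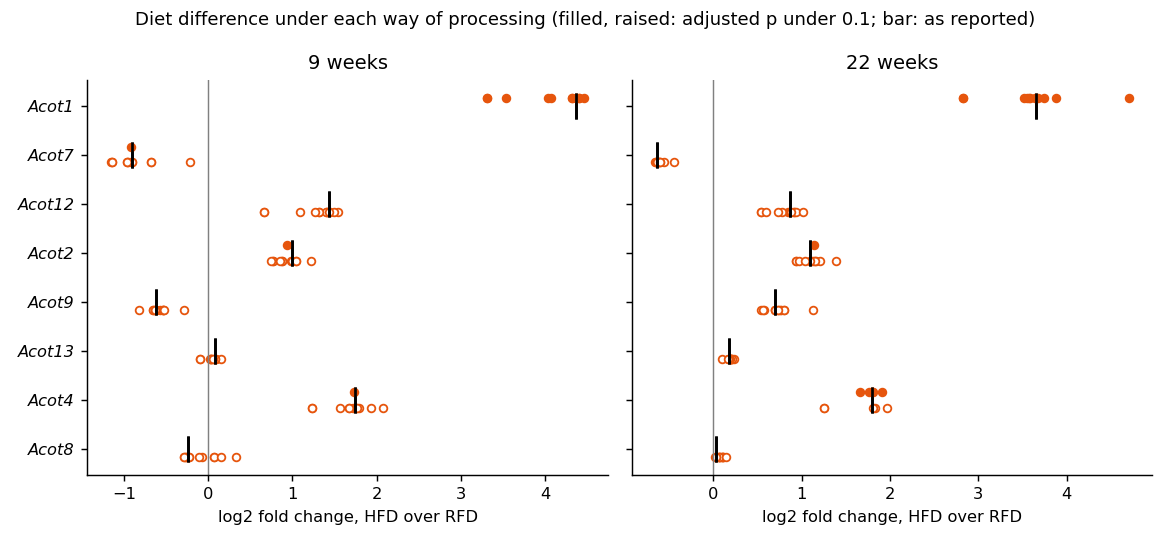
For each member, every point is the log2 fold change of HFD over RFD under 1 of the alternative ways of processing, filled and raised where the adjusted p was under 0.1, and the bar is the value reported. Acot1 stayed between 3.31 and 4.46 at 9 weeks and between 2.83 and 4.71 at 22 weeks, and Acot7 between -1.16 and -0.21 at 9 weeks.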

How the data were processed

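Per the labels, reads were trimmed with cutadapt 1.15, aligned to GRCm38 with STAR 2.6.0 and counted with RSEM. The authors deposited expected counts, TPM and FPKM per gene. Of the counts above 0, 8.79% were not whole, and they were rounded here. The deposited table held 24 columns of samples not listed here, which were not used. Their correction for estimated cell type shares and their SAM-seq test were not repeated.

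The 14020 genes with a count above 5 in 6 or more of 45 libraries were normalised by TMM in edgeR 4.0.16. Each set was tested by the quasi-likelihood test, RFD against HFD, with Benjamini-Hochberg adjustment over all genes and adjusted p under 0.1 as the threshold. The diet by week interaction was fitted over all libraries. CPM are TMM-scaled. Deposited FPKM served as an alternative to TPM. Counting limits for 0 reads (3 reads) cover counting error only.

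Named genes were all 8 members and, of each list, those called at both times or otherwise up to 3 with the smallest p at 9 weeks. 1 gene that this rule names is not reported here. The members and lists were chosen with earlier results of these data known. Replicates are separate mice. The paper's methods give cages shared by 4 mice, which the labels do not tie to libraries.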

Additional observations from a re-analysis of the deposited data

How the results depend on the processing

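Acot1 kept its direction and its call at 9 and 22 weeks under every alternative and without any single library. Its log2 fold change ran from 3.31 to 4.68 and from 2.83 to 4.71, with adjusted p up to 0.0799 and 0.023. Acot4 at 22 weeks kept its direction but lost its call without a filter on low counts (adjusted p = 0.106) and without Paneth-led libraries (0.112), and the 3 fits by limma on TPM did not call it either. The number of members called at 9 weeks was 4 by DESeq2 (1 as reported) and 1 to 4 without single libraries, the 4 being without HFD mouse 64. At 22 weeks (2 as reported) it was 3 by DESeq2, with Acot2 added (adjusted p = 0.0696), 1 with no filter on low counts, 1 by each limma fit on log2(TPM + 1), log2(TPM + 0.1) and unfiltered log2(TPM + 1), 1 without Paneth-led libraries, and 1 to 2 without single libraries. The number of all genes called at 9 weeks (431) was 1534 by DESeq2, 210 with no filter, 9, 5 and 3 by the limma fits, 254 both without libraries of low totals and without those of few detected genes, 14 with the tuft covariate and 2 without Paneth-led libraries. Without single libraries it ran from 48 (HFD mouse 6) to 2004 (HFD mouse 64), with 1708 without RFD mouse 20. At 22 weeks (102) it was 351 by DESeq2, 51, 31 and 15 by limma, 163 with the runs of mouse numbers as a term, 238 without libraries of few detected genes, and 63 to 649 without single libraries (RFD mice 10 and 1). The share called that was higher on HFD at 9 weeks, 59.6%, was 46.9% without libraries of low totals. The interaction called 1 gene as reported and 68 with no filter on low counts. The cause of these shifts was not tested.

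Reversed signs were all of differences that were not called. Acot8 at 9 weeks was 0.066, 0.33 and 0.066 by the limma fits and 0.15 with the tuft covariate, and at 22 weeks ran from -0.013 to 0.14 without single libraries. Acot13 at 9 weeks was -0.094 without libraries of low totals or of few detected genes, and ran from -0.027 to 0.18 without single libraries. In the interaction, limma on log2(TPM + 0.1) gave 0.31 for Acot1, -0.11 for Acot4 and -0.23 for Acot8, the tuft covariate gave 0.13 for Acot1 and -0.22 for Acot7, and Acot4 was -0.029 without libraries of few detected genes. Compartment shares moved by less than 1 SD with FPKM or without low totals. The tuft covariate, the single-library fits and those without Paneth-led or poorly detected libraries were added after seeing the data. No paired analysis was possible because the diets compared share no mouse number. At this depth, members of a few CPM rest on a few reads per library.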
